A study of Mus musculus with 6 samples.

Results

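The mitochondrial genome contributed 37 of the 56534 gene rows of a liver RNA-seq series, taken here as every row whose gene name begins with mt-. They are 13 messenger RNAs (mRNAs), 2 ribosomal RNAs (rRNAs) and 22 transfer RNAs (tRNAs). The series holds 6 mouse liver libraries, 3 in each of 2 groups. Both groups were C57BL/6 mice that received a high-fat diet, with 60% of its energy as fat, for 16 weeks. Libraries CON 1 to 3 are labelled wild type. Libraries LKO 1 to 3 are labelled CD36-/-, and the series title describes the deletion of CD36, a fatty acid transporter of the cell surface, as specific to hepatocytes. The promoter behind the deletion, age, sex and any pooling of animals are not stated in the labels used here. Nor do they tell whether each library is from its own animal, so p-values here measure only the spread between libraries, which may be technical.

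Cd36 itself stood at 61.95, 26.49 and 19.66 FPKM in CON 1 to 3 and at 2.73, 3.7 and 10.22 FPKM in LKO 1 to 3, lower in every LKO library, with LKO 3 nearest to CON (log2 fold change -2.50, limma, adjusted p = 0.163). FPKM are fragments scaled to the length of the gene and to the mapped fragments of the library. For very short genes, such as the tRNAs, this scaling may not make levels comparable with those of longer genes. The LKO libraries were not alike in mitochondrial RNA either: LKO 2 stood apart from all others, and LKO 3 lay near CON.

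Mitochondria carry a small circular genome, and hepatocytes, which depend on oxidative metabolism, hold many copies of it in each cell. Both strands are transcribed into long precursors that are cut apart mainly at the tRNAs, and most of the mRNAs then receive a poly(A) tail. Every mitochondrial mRNA encodes a subunit of the respiratory chain or of ATP synthase, the rRNAs form the mitochondrial ribosome, and the tRNAs read its codons. All other subunits of these complexes, and the enzymes that copy, transcribe and translate the mitochondrial genome, come from nuclear genes. Stretches of mitochondrial DNA also sit inside nuclear chromosomes, and annotations list some of them as pseudogenes. Where such a copy has the same letters as its source, reads of an mRNA can be assigned to either place.

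The sequences of the mitochondrial genes bear on how their values can be read. All 37 members were found among the GENCODE M21 transcripts (GRCm38), with the length that the deposited table gives. Of the 13 mRNAs, 7 had a nuclear copy of at least 99% identity over at least 200 bases. The 7 copies neighbour each other on chromosome 1 in that annotation, and 5 of them matched their source letter for letter over the aligned bases. mt-Nd3, a Complex I subunit, and its copy Gm28438 show how little separates such a pair. Over the 345 aligned bases they differ by the substitution T3C, with positions counted from 1 at the 5′ end of mt-Nd3. The first 120 bases of each are printed, with that base in capitals.
mt-Nd3 start: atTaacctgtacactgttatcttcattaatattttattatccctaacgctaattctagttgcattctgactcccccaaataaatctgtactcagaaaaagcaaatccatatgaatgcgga
Gm28438 start: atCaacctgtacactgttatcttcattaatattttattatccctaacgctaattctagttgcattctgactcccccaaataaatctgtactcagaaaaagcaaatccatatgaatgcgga

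mt-Atp6, a subunit of the proton channel of ATP synthase, is the clearest case. Its copy Gm10925 matched all 678 of its bases and lacks only the last 3 of mt-Atp6, in capitals in the ends printed here.
mt-Atp6 end: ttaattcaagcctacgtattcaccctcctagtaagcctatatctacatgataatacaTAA
Gm10925 end: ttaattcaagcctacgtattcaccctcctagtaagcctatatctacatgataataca

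mt-Atp6 was listed at 0 FPKM in all 6 libraries. The copy Gm10925 was listed at 3732.49, 3056.26 and 3092.33 FPKM in CON 1 to 3, and at 7151.4, 7397.98 and 3521.18 FPKM in LKO 1 to 3. mt-Atp8, which encodes another ATP synthase subunit and shares an mRNA with mt-Atp6, was listed at 10529.32 to 30150.3 FPKM. Its last 43 bases, in capitals, are the first bases of mt-Atp6 and so stand in Gm10925 too. No other match of at least 50 bases and 90% identity was found for it among the annotated nuclear transcripts. The rest of the nuclear genome was not searched, so a copy outside the annotation may have been missed.
mt-Atp8: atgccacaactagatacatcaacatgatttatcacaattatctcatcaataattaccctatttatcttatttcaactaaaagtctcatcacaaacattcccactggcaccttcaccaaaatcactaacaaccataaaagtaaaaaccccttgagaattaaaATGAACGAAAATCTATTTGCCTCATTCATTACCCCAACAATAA

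How the deposited values divide between a gene and its copy differed from gene to gene. The FPKM of each copy were rescaled to the length of its source and added to it, and the share listed under the mitochondrial gene was then taken. mt-Co2 and mt-Co3, subunits of cytochrome c oxidase (Complex IV), held 3.20% to 5.59% and 0.50% to 6.47% of these sums. mt-Nd4l, a Complex I subunit, held 5.18% to 9.15%, and mt-Nd3 held 22.1% to 39.6%. mt-Nd4 and mt-Co1, whose copies cover 876 of 1378 and 483 of 1545 bases, held 96.7% to 98.2% and 85.5% to 96.8%. The division was unequal between libraries too. In LKO 2, mt-Co3 was listed at 108.83 FPKM, the lowest of the 6 values, while its copy Gm28437 was listed at 21663.98 FPKM, the highest of the 6. From the letters alone, RNA of the gene and RNA of an identical copy cannot be told apart, so values of these 7 genes are given as deposited and also with the copy added.

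**Figure D1:**
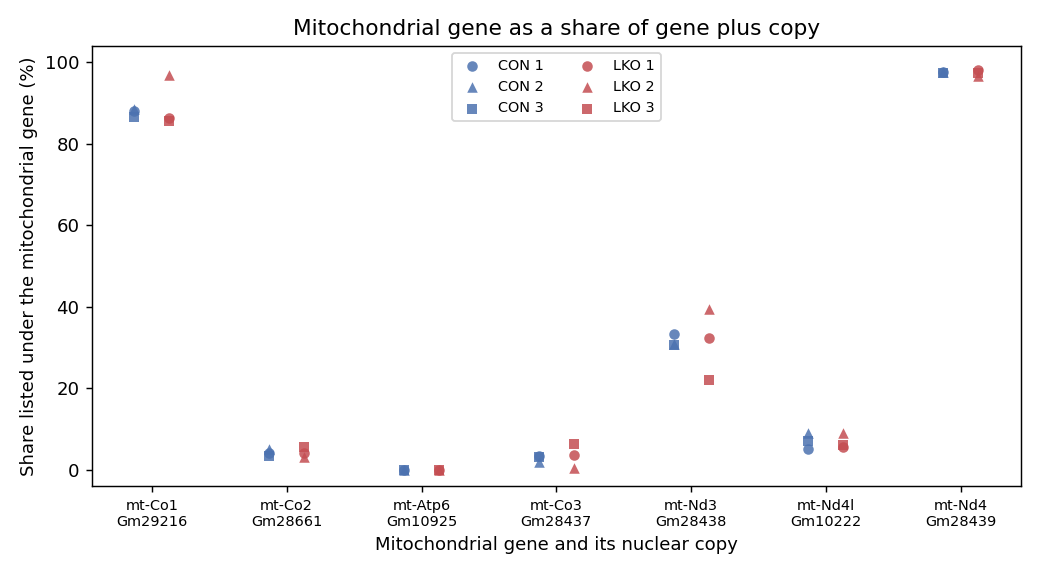
Share of the FPKM of gene plus copy that was listed under the mitochondrial gene (vertical axis, %), with the copy rescaled to the length of the gene, for 7 genes and 6 libraries (1 point each, CON blue, LKO red). mt-Atp6 lies at 0% in every library, mt-Co2 and mt-Co3 below 7%, and mt-Nd4 above 96%.

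As deposited, the 13 mRNAs took 6.00%, 4.51% and 3.69% of the summed FPKM in CON 1 to 3, and 5.03%, 9.70% and 3.95% in LKO 1 to 3. LKO 2 stood above every other library, and LKO 1 and LKO 3 lay inside the CON range. The 2 rRNAs took 0.152%, 0.200% and 0.167% in CON 1 to 3, and 0.199%, 0.386% and 0.163% in LKO 1 to 3. For the tRNAs the shares were 0.0307%, 0.0255% and 0.0206% in CON 1 to 3, and 0.0412%, 0.0665% and 0.0226% in LKO 1 to 3. In this smallest class LKO 1 and LKO 2 both lay above the CON range. The class sum is nearly all 1 short gene, mt-Tp, which held 476.26 of 486.39 FPKM in LKO 1 and 833.58 of 845.99 FPKM in LKO 2. The mRNAs held 95.2% to 97.0% of the mitochondrial FPKM in each library.

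All 37 members together took 4.93% ± 1.17 (SD, n = 3) of the summed FPKM in CON and 6.52% ± 3.19 (SD, n = 3) in LKO. The difference of 1.59 percentage points was smaller than the SD of the LKO group, and it was -0.229 percentage points without LKO 2. With the 7 copies added, the shares were 10.6%, 8.07% and 6.92% in CON and 10.1%, 16.3% and 7.49% in LKO. A share depends on every other gene of the library. The major urinary proteins, abundant secreted products of the liver, took 6.22%, 15.6% and 22.1% in CON and 29.4%, 28.9% and 23.9% in LKO, and the part of this in the mitochondrial shares was tested only by leaving them out of the sum, which gave a difference of 3.33 percentage points.

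**Figure D2:**
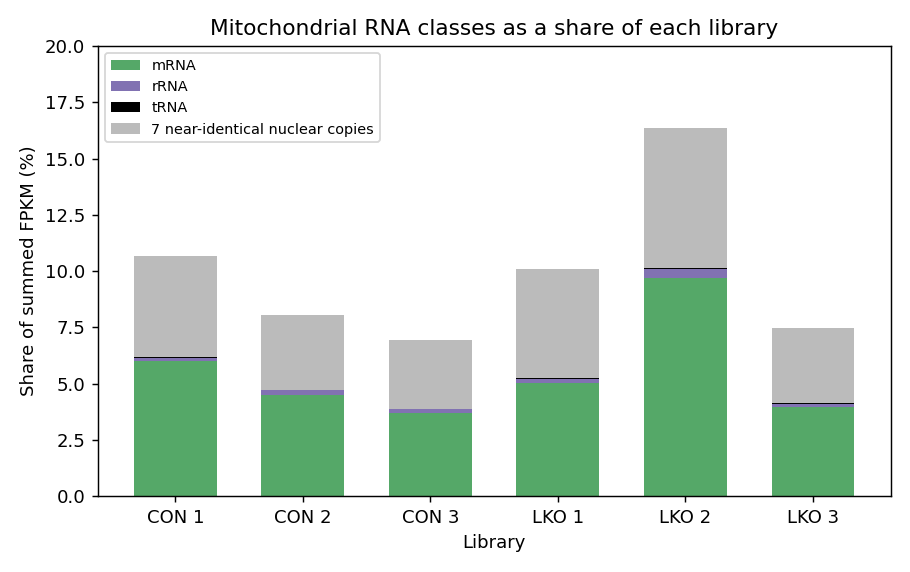
Stacked bars of the share of each library's summed FPKM (vertical axis, %) held by mitochondrial mRNAs, rRNAs, tRNAs and the 7 near-identical nuclear copies, for the 6 libraries. LKO 2 reaches 16.3%, and the other 5 libraries lie between 6.92% and 10.6%.

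mt-Cytb encodes cytochrome b of Complex III, the cytochrome bc1 complex, and had no near-identical copy among the annotated transcripts. It stood at 2887.19, 2586.79 and 2162.68 FPKM in CON 1 to 3, and at 4669.29, 8316.01 and 2725.13 FPKM in LKO 1 to 3. LKO 1 and LKO 2 were above all CON libraries, and LKO 3 lay among them. The log2 fold change of LKO against CON, here and below on the log2(FPKM + 1) scale, was 0.90 with a standard error of 0.40 (limma, adjusted p = 0.230). Benjamini-Hochberg adjustment ran over all 11104 genes with a mean of at least 1 FPKM.

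The genes of Complex I, the NADH dehydrogenase that feeds electrons into the chain, had their highest value in LKO 2 in every case, while the order of the other libraries varied. mt-Nd1 stood at 3958.31, 3266.16 and 2916.97 FPKM in CON 1 to 3, and at 6264.06, 10718.71 and 3175.44 FPKM in LKO 1 to 3. mt-Nd2 stood at 4879.54, 4733.75 and 3999.76 FPKM in CON, and at 6609.41, 13840.64 and 4251.55 FPKM in LKO. For mt-Nd4 the values were 2427.43, 2086.15 and 1920.77 FPKM in CON, and 3285.97, 5858.35 and 2106.5 FPKM in LKO. In all 3 genes LKO 1 and LKO 2 exceeded every CON library in FPKM and LKO 3 did not leave the CON range. As a share of summed FPKM, LKO 1 was above CON for mt-Nd1 only (0.531%, CON 0.299% to 0.476%). For mt-Nd2 and mt-Nd4 its shares of 0.560% and 0.279% were inside the CON range, which reached 0.587% and 0.292%. The log2 fold changes of mt-Nd1, mt-Nd2 and mt-Nd4 were 0.83, 0.69 and 0.69 (limma, adjusted p = 0.272, 0.327 and 0.287). With Gm28439 added, mt-Nd4 stood at 2489, 2139.93 and 1973 FPKM in CON and at 3347, 6056 and 2162 FPKM in LKO, and its log2 fold change was again 0.69 (limma, adjusted p = 0.288).

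mt-Nd5 stood at 1317.9, 1207.2 and 945.15 FPKM in CON and at 1327.7, 3855.54 and 1003.28 FPKM in LKO, so that LKO 1 barely passed CON 1. mt-Nd4l stood at 295.54, 431.96 and 299.23 FPKM in CON and at 242.24, 1276.15 and 265.84 FPKM in LKO, where LKO 1 and LKO 3 were the lowest of the 6. With its copy Gm10222 added, mt-Nd4l stood at 5704, 4719 and 4178 FPKM in CON and at 4253, 13992 and 4381 FPKM in LKO. LKO 1 was then inside the CON range. Their log2 fold changes as deposited were 0.59 and 0.37 (limma, adjusted p = 0.443 and 0.706).

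mt-Nd3 had the highest fold change of the mRNAs. It stood at 1312.06, 1226.36 and 1244.17 FPKM in CON 1 to 3, and at 3438.84, 5817.76 and 920.64 FPKM in LKO 1 to 3. LKO 3 was the lowest library and LKO 2 the highest, with a log2 fold change of 1.07 and a standard error of 0.60 (limma, adjusted p = 0.301). With Gm28438 added, mt-Nd3 stood at 3944, 3971 and 4048 FPKM in CON and at 10646, 14707 and 4159 FPKM in LKO. The groups then did not overlap, although LKO 3 was close to CON, and the log2 fold change was 1.12 (limma, adjusted p = 0.210).

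mt-Nd6 is the 1 mRNA read from the minus strand in the annotation. It stood at 990.11, 899.64 and 734.74 FPKM in CON 1 to 3, and at 1452.94, 2561.82 and 832.91 FPKM in LKO 1 to 3. LKO 1 and LKO 2 were above every CON library, and LKO 3 lay between CON 2 and CON 3 (log2 fold change 0.75, limma, adjusted p = 0.277).

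The genes of Complex IV, which passes electrons to oxygen, held the highest and some of the lowest deposited levels. mt-Co1 stood at 16055.67, 12375.9 and 10768.56 FPKM in CON 1 to 3, and at 18028.48, 40064.25 and 11075.68 FPKM in LKO 1 to 3. With Gm29216 added, it stood at 18232, 13987 and 12453 FPKM in CON and at 20912, 41383 and 12948 FPKM in LKO. With and without the copy, LKO 1 and LKO 2 were above the CON range in FPKM. The log2 fold changes were 0.63 as deposited and 0.61 with the copy (limma, adjusted p = 0.412 and 0.401). As a share of summed FPKM, mt-Co1 as deposited took 1.53% in LKO 1, inside the CON range of 1.10% to 1.93%. mt-Co1 and mt-Atp8 had the highest FPKM of the mitochondrial RNAs in every library as deposited, but mt-Atp8 is only 204 bases long. mt-Co2 stood at 414.92, 462.24 and 276.97 FPKM in CON and at 631.91, 770.76 and 466.6 FPKM in LKO. Its groups did not overlap, with LKO 3 only just above CON 2, and its log2 fold change was 0.70 with a standard error of 0.27 (limma, adjusted p = 0.210). With Gm28661 added, mt-Co2 stood at 9998, 8829 and 8038 FPKM in CON and at 15324, 24089 and 8341 FPKM in LKO. The groups then overlapped (log2 fold change 0.71, limma, adjusted p = 0.300).

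mt-Co3 was the 1 tested member whose highest deposited value was not in LKO 2. It stood at 317.32, 148.59 and 229.07 FPKM in CON 1 to 3, and at 553.32, 108.83 and 505.53 FPKM in LKO 1 to 3, with LKO 2 lowest. With Gm28437 added, it stood at 9063, 7378 and 6952 FPKM in CON and at 15255, 21745 and 7811 FPKM in LKO, and LKO 2 was highest, as for the other mRNAs. The log2 fold changes were 0.50 as deposited and 0.83 with the copy (limma, adjusted p = 0.615 and 0.246).

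Of the ATP synthase genes, mt-Atp8 stood at 15056.15, 12494.68 and 10529.32 FPKM in CON 1 to 3, and at 12801.39, 30150.3 and 10584.07 FPKM in LKO 1 to 3. LKO 1 and LKO 3 lay inside the CON range, and its log2 fold change of 0.35 was the smallest of all members tested (limma, adjusted p = 0.609). mt-Atp6 with its copy stood at 3716, 3043 and 3079 FPKM in CON and at 7120, 7365 and 3506 FPKM in LKO, so that LKO 1 and LKO 2 were nearly equal. Its log2 fold change was 0.80 (limma, adjusted p = 0.215).

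The rRNAs were also highest in LKO 2, followed by LKO 1. mt-Rnr1, the 12S rRNA of the small ribosomal subunit, stood at 598.2, 892.52 and 754.62 FPKM in CON 1 to 3, and at 1266.87, 2541.61 and 763.66 FPKM in LKO 1 to 3. mt-Rnr2, the 16S rRNA of the large subunit, stood at 669.86, 966.19 and 873.28 FPKM in CON and at 1079.27, 2364.25 and 804.55 FPKM in LKO. As a share of summed FPKM, mt-Rnr2 in LKO 1 was inside the CON range (0.0915%, CON 0.0805% to 0.104%). In CON, mt-Rnr2 was above mt-Rnr1 in every library, with ratios of 1.12, 1.08 and 1.16. In LKO the ratios were 0.852, 0.930 and 1.05, below every CON value. How often ratios of other genes to mt-Rnr1 fell apart between groups was not counted. The log2 fold changes of mt-Rnr1 and mt-Rnr2 were 0.87 and 0.62 (limma, adjusted p = 0.252 and 0.346). The 2 genes differ in length, at 955 and 1582 bases. With the trend on gene length removed, their log2 fold changes were closer, at 0.81 and 0.73.

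Of the 22 tRNAs, 20 were listed at 0 FPKM in all 6 libraries. All 14 on the plus strand were at 0, and of the 8 on the minus strand mt-Te and mt-Tp had values. mt-Te carries glutamate and lies beside mt-Cytb and mt-Nd6, and mt-Tp carries proline. They are printed with mt-Tt, the threonine tRNA that lies between mt-Cytb and mt-Tp on the plus strand and was listed at 0. Capitals mark the anticodon, which begins at base 31 in each.
mt-Te: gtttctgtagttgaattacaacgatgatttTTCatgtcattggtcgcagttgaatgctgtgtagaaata
mt-Tp: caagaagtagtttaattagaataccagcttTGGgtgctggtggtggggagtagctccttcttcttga
mt-Tt: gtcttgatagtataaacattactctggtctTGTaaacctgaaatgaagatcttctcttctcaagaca

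mt-Tp stood at 251.41, 232.89 and 197.82 FPKM in CON 1 to 3, and at 476.26, 833.58 and 212.74 FPKM in LKO 1 to 3. LKO 1 and LKO 2 were above every CON library and LKO 3 was inside the CON range (log2 fold change 0.95, standard error 0.44, limma, adjusted p = 0.244). mt-Te stood at 4.04, 4.02 and 3.2 FPKM in CON and at 10.13, 12.41 and 4.26 FPKM in LKO. Its groups did not overlap, with LKO 3 close to CON 1 (log2 fold change 0.96, standard error 0.34, limma, adjusted p = 0.196). The mt-Te level is low and its gene is 69 bases long, so few fragments can lie behind each value.

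**Figure D3:**
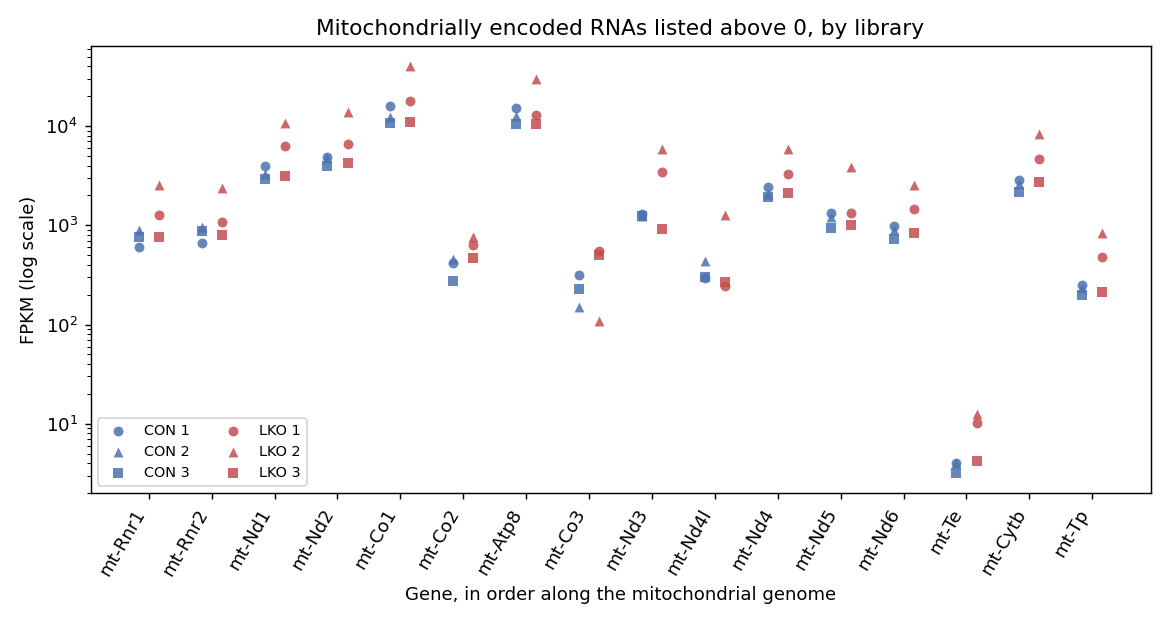
FPKM (vertical log axis) of the 16 mitochondrially encoded RNAs listed above 0, in order along the mitochondrial genome, with 1 point for each library (CON blue, LKO red). LKO 2 is highest for 15 of the 16 genes, mt-Co3 being the other, and mt-Co1 and mt-Atp8 have the highest FPKM as deposited.

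Of the 37 members, 16 passed the filter of a mean of 1 FPKM and were tested, and the other 21 were at 0 in every library. None of the 16 passed an adjusted p of 0.05 in limma, and across all genes 0.00% passed as higher and 0.00901% as lower in LKO. At an unadjusted p under 0.05, limma gave 2 members higher (mt-Co2 and mt-Te) and 0 lower, where 3.25% of all genes were higher and 18.9% lower. Groups did not overlap for the same 2 members, both higher in LKO, against 3.92% of all genes higher and 24.3% lower. The log2 fold changes of the 16 ran from 0.35 to 1.07 with a median of 0.69, and the median over all genes was -0.23. All 16 were positive, as were 28.4% of all genes, but mt-Atp8 turned negative with quantile normalization, with the trend on gene length removed and without LKO 2, mt-Nd4l with the latter 2, and mt-Co1 with quantile normalization. Quantile normalization gave -0.53 for mt-Atp8 and -0.01 for mt-Co1, and leaving out LKO 2 gave -0.11 for mt-Atp8 and -0.41 for mt-Nd4l.

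The LKO libraries differed from each other by more than the group means differed. With copies added, the median log2 deviation of the 13 mRNAs from the CON mean was 0.73 in LKO 1, 1.52 in LKO 2 and -0.09 in LKO 3. LKO 2 was above the CON range for 13 of 13 mRNAs, LKO 1 for 11 and LKO 3 for 1, which was mt-Nd3. These counts use FPKM not rescaled between libraries. Summed FPKM was 1179405 in LKO 1 and 1271880 in LKO 2, and at most 976871 in CON. Without LKO 3, limma called 9 of the 16 members as deposited, all higher in LKO, while 4.6% of all genes were called higher and 19.0% lower. These were mt-Rnr1, mt-Nd1, mt-Co2, mt-Nd3, mt-Nd4, mt-Nd6, mt-Te, mt-Cytb and mt-Tp, with limma adjusted p from 0.0140 for mt-Te to 0.0473 for mt-Co2. Without LKO 2, limma called 0 members and 0 genes in all, with 1 member at an unadjusted p under 0.05, and the log2 fold changes ran from -0.41 for mt-Nd4l to 1.25 for mt-Co3. mt-Cytb was then at 0.50 and mt-Nd1 at 0.41, mt-Nd2 at 0.23, mt-Rnr2 at 0.17, mt-Co1 at 0.13 and mt-Nd5 at 0.01. For mt-Co3 the value was 0.09 without LKO 1.

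LKO 1 and LKO 2 also differed in pattern. In LKO 2 the 13 mRNAs deviated from the CON mean by 1.17 to 1.88 on the log2 scale, and in LKO 1 by -0.19 to 1.42. The highest in LKO 1 were mt-Nd3 at 1.42, mt-Atp6 at 1.12 and mt-Co3 at 0.97. The lowest were mt-Nd5 at 0.20, mt-Atp8 at 0.01 and mt-Nd4l at -0.19. mt-Atp8 and mt-Nd4l are the shortest mRNA genes at 204 and 297 bases, mt-Nd3 is next at 348 and mt-Nd5 is the longest at 1824. With the trend on gene length removed, the log2 fold changes of these 4 genes as deposited were -0.14, -0.02, 0.72 and 0.75. The part of gene length in the pattern of LKO 1 was not tested.

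**Figure D4:**
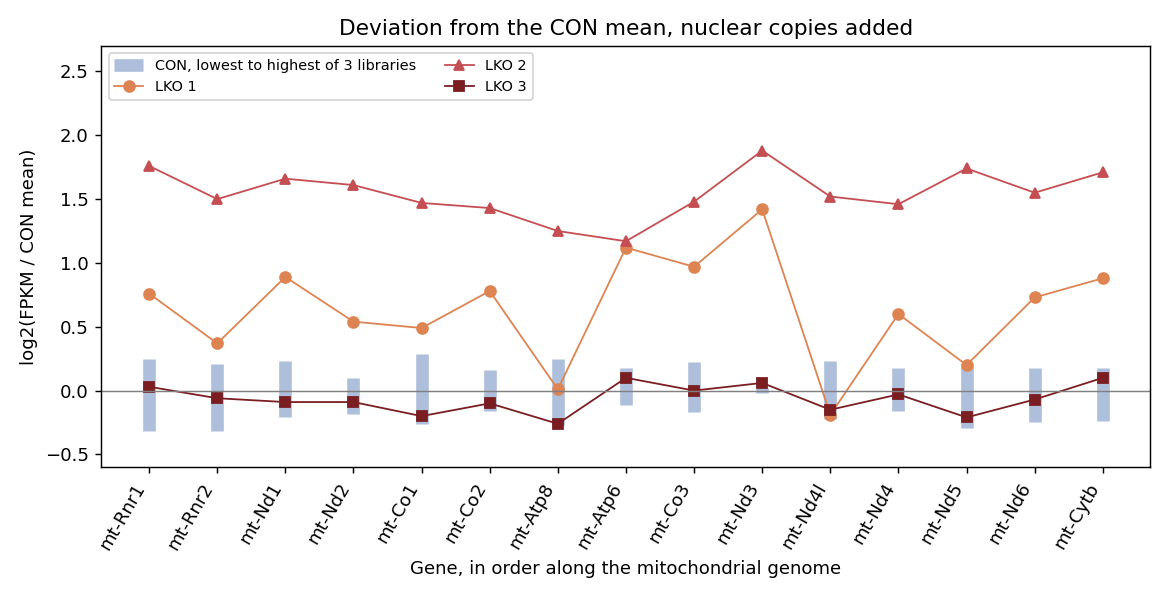
Log2 ratio of FPKM to the CON mean (vertical axis) for the mRNAs and rRNAs in genome order, with nuclear copies added. Blue bars span the lowest to highest CON library and lines join the values of 1 LKO library: LKO 2 is above the CON bars throughout, and LKO 3 has a median of -0.09 over the mRNAs.

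Ratios between mitochondrial genes take out a scale factor that all genes of a library share, but not a trend on gene length. With that trend removed, the log2 fold changes of mt-Atp8, mt-Nd6 and mt-Cytb as deposited were -0.14, 0.51 and 0.90. Their lengths are 204, 519 and 1144 bases. The pairs named here were chosen after their values were seen. The ratio of mt-Nd6 to mt-Cytb was 0.343, 0.348 and 0.340 in CON 1 to 3, and 0.311, 0.308 and 0.306 in LKO 1 to 3, so the groups did not overlap. The ratio of mt-Atp8 to mt-Cytb was 5.21, 4.83 and 4.87 in CON and 2.74, 3.63 and 3.88 in LKO. All 3 LKO libraries lay below CON, LKO 3 included, which did not stand apart in the levels of either gene. Over the 78 pairs of mRNAs with copies added, 17 ratios did not overlap between groups, 9 of them with mt-Atp8 and 7 with mt-Cytb, the pair of both counted in each. Taken as ratios to mt-Atp8, these 9 were all higher in LKO. The 7 ratios to mt-Cytb were all lower in LKO, a direction that was common among all genes too. A share over pairs of all genes was not counted. Of all genes, 0.207% had a ratio to mt-Cytb that was higher in every LKO library than in any CON library, and 45.3% one that was lower. For ratios to mt-Atp8 these shares were 0.666% and 12.8%.

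Genes that share an mRNA did not keep 1 ratio. mt-Atp6 with its copy, divided by mt-Atp8, was 0.247, 0.244 and 0.292 in CON and 0.556, 0.244 and 0.331 in LKO. For mt-Nd4l divided by mt-Nd4, both with copies, the ratios were 2.29, 2.21 and 2.12 in CON and 1.27, 2.31 and 2.03 in LKO. In both pairs LKO 1 stood apart from the other 5 libraries. The summed rRNA divided by the summed mRNA was 0.0254 in CON 1 and between 0.0396 and 0.0452 in the other 5 libraries.

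The nuclear subunits of the same complexes had smaller fold changes. Of 75 nuclear subunit genes tested, 60 had a positive log2 fold change, where 28.4% of all genes had. Their median was 0.22, with a range of -0.90 to 0.66, and the median of all genes was -0.23. In limma, 0 of the 75 passed an adjusted p of 0.05. Their groups did not overlap for 4 higher and 6 lower genes, against the 3.92% and 24.3% of all genes given above. Their median log2 deviation from the CON mean was 0.39 in LKO 1, 0.29 in LKO 2 and -0.09 in LKO 3. The difference between nuclear and mitochondrial subunits was not tested.

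By complex, mitochondrial genes were taken with copies added and nuclear genes as deposited. The median log2 fold change was 0.26 for 36 nuclear and 0.69 for 7 mitochondrial genes of Complex I. It was 0.16 for 9 nuclear genes of Complex III and 0.90 for mt-Cytb. For Complex IV it was 0.24 for 11 nuclear and 0.71 for 3 mitochondrial genes, and for ATP synthase 0.15 for 15 nuclear and 0.57 for 2 mitochondrial genes. Complex II, succinate dehydrogenase, has no mitochondrial subunit, and the median of its 4 nuclear genes was -0.39. Its catalytic subunit Sdha stood at 195.63, 130.7 and 127.46 FPKM in CON and at 75.74, 53.6 and 120.25 FPKM in LKO, with groups that did not overlap (log2 fold change -0.90, limma, adjusted p = 0.193). Ndufc1, an accessory subunit of Complex I, stood at 98.94, 105.78 and 115.06 FPKM in CON and at 203.36, 195.26 and 120.1 FPKM in LKO, without overlap (log2 fold change 0.66, limma, adjusted p = 0.196). The summed mitochondrial mRNA with copies was 4.29, 3.81 and 3.48 times the summed nuclear subunits in CON 1 to 3, and 4.47, 8.37 and 3.78 times in LKO 1 to 3. LKO 2 alone lay far outside the other values.

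**Figure D5:**
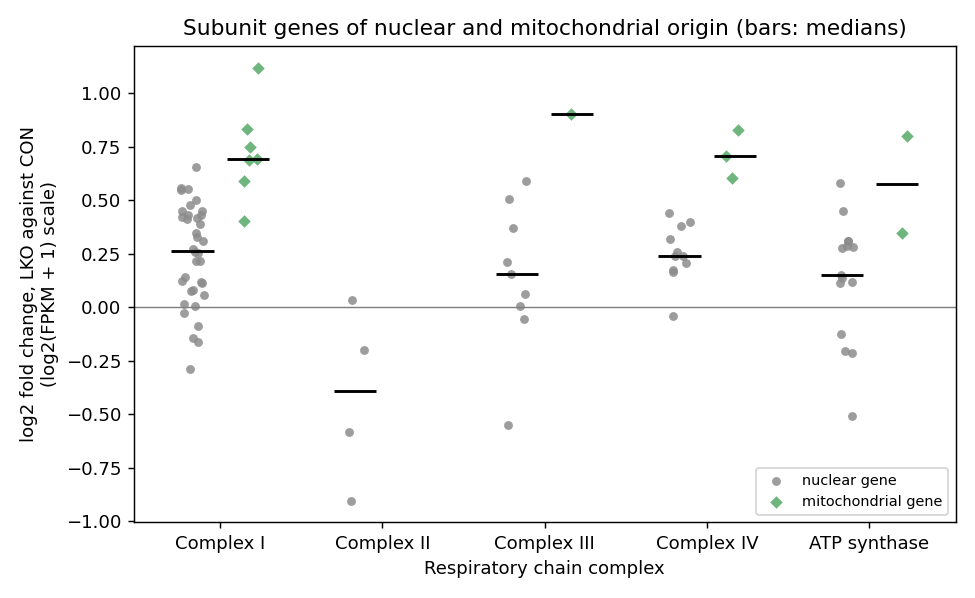
Log2 fold change of LKO against CON on the log2(FPKM + 1) scale (vertical axis) for subunit genes of 5 complexes, nuclear genes as grey points and mitochondrial genes, with copies added, as green diamonds. Black bars are medians, which are 0.26 and 0.69 for Complex I, and Complex II has nuclear genes only.

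The nuclear genes that maintain and read the mitochondrial genome were given by lists of their roles, and none passed an adjusted p of 0.05 in limma. Of 11 genes for mitochondrial DNA copying and packaging, 2 were positive, with a median of -0.27, and 4 were lower without overlap, where 24.3% of all genes were. Tfam, which packages mitochondrial DNA and starts its transcription, stood at 25.54, 19.25 and 16.78 FPKM in CON and at 10.86, 5.94 and 17.7 FPKM in LKO. LKO 2 was lowest and LKO 3 was among the CON libraries (log2 fold change -0.88, limma, adjusted p = 0.212). Lonp1, a protease of the mitochondrial matrix, stood at 52.14, 43.96 and 43.05 FPKM in CON and at 28.94, 22.59 and 42.18 FPKM in LKO.

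Of 9 genes for transcription and its termination, 5 were positive and the median was 0.00. Polrmt, the mitochondrial RNA polymerase, stood at 9.56, 9.88 and 11.36 FPKM in CON and at 11.2, 11.36 and 11.13 FPKM in LKO (log2 fold change 0.12, standard error 0.16, limma, adjusted p = 0.638). Its LKO values lay within the upper part of the CON range. Of 25 genes for RNA processing, stability and decay, 6 were positive with a median of -0.16, and the groups did not overlap for 1 higher and 5 lower, against 3.92% and 24.3% of all genes. Fastkd1, of a family of mitochondrial RNA-binding proteins, stood at 6.62, 4.98 and 6.17 FPKM in CON and at 3.23, 2.32 and 3.76 FPKM in LKO (log2 fold change -0.76, limma, adjusted p = 0.176).

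The mitochondrial aminoacyl-tRNA synthetases, which load the tRNAs, had 4 positive genes of 19, a median of -0.29, and 8 genes lower without overlap, against 24.3% of all genes. Gatc, a subunit of the amidotransferase that completes glutamine loading, stood at 11.55, 11.38 and 11.68 FPKM in CON and at 8.15, 6.5 and 8.76 FPKM in LKO (log2 fold change -0.52, limma, adjusted p = 0.187). Of 7 regulators of mitochondrial biogenesis, 2 were positive and the median was -0.32. Ppara, a nuclear receptor for fatty acids that drives their oxidation, stood at 101.1, 92.34 and 111.15 FPKM in CON and at 75.67, 55.81 and 69.97 FPKM in LKO, without overlap (log2 fold change -0.60, limma, adjusted p = 0.180). The medians of these 5 lists ran from -0.32 to 0.00, around the -0.23 of all genes.

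Among 4377 genes outside the mitochondrial genome with a mean of at least 10 FPKM, those most like mt-Cytb over the 6 libraries were the copies Gm28661 and Gm28437, with Pearson r of 0.989 and 0.988 on log2(FPKM + 1). Gm20463, Stard10, a lipid transfer protein, and Tmsb10, which binds actin monomers, followed with 0.985, 0.980 and 0.975. Within the mitochondrial genome, mt-Nd6 reached 0.995 and mt-Co3 as deposited -0.311. These are descriptions over 6 libraries that share depth and scaling, and LKO 2 is the extreme point of each.

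Summed FPKM ran from 831928 to 1271880, and 10614 to 11311 genes reached 1 FPKM in a library. Hepatocyte markers, Alb among them, summed to 56929 to 78811 FPKM in CON and 50104 to 61476 FPKM in LKO. Of these 10 markers, 1 was positive in log2 fold change. Sums of macrophage markers were 122.56 to 181.91 FPKM in CON and 91.06 to 183.52 FPKM in LKO, and those of endothelial markers 48.48 to 127.91 and 60.5 to 93.14 FPKM. In log2 fold change, 2 of 8 macrophage and 0 of 8 endothelial markers were positive, where 28.4% of all genes were. Their medians were -0.20 and -0.23, and that of all genes was -0.23. Lymphocyte and neutrophil markers summed to 6.25 to 11.7 FPKM in CON and 3.49 to 7.11 FPKM in LKO, and 1 of 3 tested was positive. Stellate cell markers summed to 85.55 to 93 FPKM in CON, and to 108.63, 122.25 and 82.4 FPKM in LKO 1 to 3. Cholangiocyte markers summed to 29.41 to 51.49 FPKM in CON, and to 56.27, 74.98 and 34.11 FPKM in LKO 1 to 3. Both sums were highest in LKO 2 and next in LKO 1, but each rests mostly on 1 gene. Dcn stood at 60.63 to 67.63 FPKM in CON and 83.7, 93.3 and 58.61 FPKM in LKO 1 to 3, and Spp1 at 26.43 to 47.66 FPKM in CON and 52.06, 69.58 and 31.27 FPKM in LKO 1 to 3. Of the 8 stellate cell markers, 6 were positive in log2 fold change, and the 2 negative ones, Reln and Lrat, had their highest values in CON. All 3 cholangiocyte markers that were tested were positive. Red cell markers summed to 92.09 to 609.58 and 145.36 to 334.69 FPKM. Markers of muscle and brown fat, tissues rich in mitochondria, summed to 0.68 to 1.71 FPKM in CON and 0.74 to 2.15 FPKM in LKO, with Ckm, Myh4 and Ucp1 at 0 in all 6 libraries. The part of cell makeup in the mitochondrial values was not tested, and in bulk tissue fewer cells of a type and less RNA per cell cannot be told apart.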

How the data were processed

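Liver RNA of 6 libraries was extracted with TRIzol and DNase I, per the labels' protocols, which do not name a poly(A) or rRNA-removal step. The deposited values are FPKM per gene, made by the authors and given to 2 decimals. Per the submitters' processing notes, HISAT2 and StringTie were used with build mm9. Versions, annotation, strand setting and handling of reads that match several places were not given in the sources used here. Depth in reads is unknown, so no counting interval is given.

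From these values, limma 3.58.1 in R 4.3.3 was run on log2(FPKM + 1) with a trend, on genes with a mean of at least 1 FPKM and with Benjamini-Hochberg adjustment over all genes. A fold change on this scale understates the change of low genes. The test was checked on simulated data. Nuclear copies were found with BLAST 2.17.0 among GENCODE M21 transcripts, and the 7 kept had at least 99% identity over at least 200 bases. Sequences come from that set. No coordinates are given because its build differs from the one in the notes.

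Every mitochondrial mRNA and rRNA is named, as is each tRNA with a mean of at least 1 FPKM. Of each nuclear list of mitochondrial gene expression, genes named come from the 4 with the smallest unadjusted p, and up to 5 genes were named for likeness to mt-Cytb. Single cell type markers were named after their values were seen. The members and lists were chosen with earlier results of these data known. Alternatives were another pseudocount, other filters, 4 rescalings, a length trend, the replicate number as a block, leaving out each library, and, chosen after seeing the data, adding copies to members.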

Additional observations from a re-analysis of the deposited data

How the results depend on the processing

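No member passed the threshold in limma under any setting except without LKO 3, where 9 did, so leaving out single libraries gave 0 to 9 members. The same range was 0 to 39 for 146 nuclear genes of mitochondrial gene expression, in which the 75 nuclear subunits are counted too. For all genes it was 0 to 2626, where the fit of all 6 libraries called 1. The count for all genes was 0 with a pseudocount of 0.1, without a filter, with a filter at 5 FPKM and with the length trend removed, and 2 with libraries rescaled to the same sum, with or without the mitochondrial genes. The causes were not tested. The median of all genes moved from -0.23 to -0.48 under that rescaling and to -0.01 with median-ratio scaling, and the members' median was then 0.38 and 0.96. The difference in share ran from -0.229 to 2.78 percentage points with single libraries left out, turning negative without LKO 2.

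Of 256 values of 16 single genes under 16 other settings, 241 kept their direction and side of the threshold, 9 passed the threshold without LKO 3, and 6 changed sign. Sizes moved among those kept: mt-Nd2 was at 0.01 with quantile normalization, and without LKO 2 mt-Nd5 was at 0.01 and mt-Co1 at 0.13. With the length trend removed, the tRNAs mt-Te and mt-Tp fell from 0.96 and 0.95 to 0.21 and 0.20. Under that setting mt-Nd5 rose from 0.59 to 0.75 and mt-Co1 from 0.63 to 0.74. The members' median was then 0.69, and limma gave 0 members an unadjusted p under 0.05. For the 146 nuclear genes the median under that setting was 0.11, against 0.03 in the reported fit. For all genes it was 0.00, against -0.23. With single libraries left out, mt-Nd5 ran from 0.01 to 0.98, mt-Co1 from 0.13 to 1.06, mt-Rnr2 from 0.17 to 0.95, mt-Nd2 from 0.23 to 1.08 and mt-Co3 from 0.09 to 1.25. The sign changed for mt-Atp8 and mt-Co1 with quantile normalization (-0.53 and -0.01), mt-Atp8 and mt-Nd4l with the length trend removed (-0.14 and -0.02), and the same genes without LKO 2 (-0.11 and -0.41, within ranges of -0.11 to 0.65 and -0.41 to 0.79 with single libraries left out). Deviations of same-numbered libraries correlated at -0.046, 0.168 and 0.070, and those of the other pairs at -0.156 to 0.055. Such low correlations over few libraries cannot tell whether the replicate numbers pair them. With the replicate block, limma called 0 genes over all, 0 members and 0 nuclear genes of mitochondrial gene expression, and 2619, 5 and 16 at an unadjusted p under 0.05.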
